A study of Oryza sativa with 24 samples.

Results

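Rice has a family of calcium sensors made up of the calmodulins (CaM) and the calmodulin-like (CML) proteins. The 10 genes described here, CML1, CML3, CML4, CML14, CML15, CML16, CML32, CAM1-1, CAM2 and CAM3, were measured by 12 of the 57258 probe sets analysed on the Affymetrix GeneChip Rice Genome Array. CML14, CML15 and CML32 were read by the probe sets Os.8889.1.S1_at, Os.10058.1.S1_at and Os.53219.1.S1_at. Each other gene was read by all probe sets that the array annotation assigned to it alone, through a RefSeq symbol or synonym. These were Os.2216.1.S1_at for CML1, Os.10274.3.S1_at for CML3, Os.36767.1.S1_at for CML16, Os.455.1.S1_at for CAM1-1, Os.10290.1.S1_at for CAM2, Os.19793.1.S1_at for CAM3, and Os.27808.1.S1_at, Os.27808.1.S1_s_at and Os.34925.1.A1_at for CML4, called S1_at, S1_s_at and A1_at below. The RefSeq entry behind the CAM1-1 probe set also lists CAM1-2 and CAM1-3 as synonyms, so these genes cannot be told apart in the data. The genes were selected on their signals in pollen and in leaf, and those signals are given below as a description with no test. Tests with limma were kept to steps between successive pollen stages and to root against callus. The pollen steps use the same pollen arrays as the signals behind the choice, so their p-values set a difference against the spread between arrays and are not independent of that choice. A probe set is said to have risen or fallen where log2(signal + 50) differed by at least 1 in size at an adjusted p under 0.05, with p-values adjusted over all 47589 probe sets tested.

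The signals came from 24 arrays, 3 for each of 8 tissues of wild-type japonica rice (cultivar Zhonghua 10). The pollen series ran from uninucleate microspores (UNMs) released from tetrads, through pollen of the bicellular (BCP) and the immature tricellular (TCP) stage, to mature pollen grains (MPGs) shaken from flowering panicles and to germinated pollen grains (GPGs) kept in liquid germination medium for about 10 min. UNMs, BCP and TCP were freed from crushed anthers in mannitol, and only BCP passed over a Percoll gradient. The study reports a lower purity for BCP than for UNMs and TCP, and that part of the grains in GPGs had not germinated. The label of BCP names grains before and after pollen mitosis. The sporophytic tissues were leaf, root of seedlings grown for 2 weeks, and callus induced from seeds for about 1 month on medium with the auxin 2,4-D. According to the labels leaf was flag leaf at grain filling, about 110 to 120 days after germination, whereas the methods of the study describe leaves of seedlings of the same age as the roots, so the age of the leaf is not settled. Every sample is a bulk extract, in which fewer cells of a type and less RNA per cell cannot be told apart.

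Calmodulins bind calcium ions through pairs of EF-hand motifs, change shape and then bind to enzymes, channels and transcription factors. CML proteins carry the same motifs on more diverged backbones, and far less is known of their targets. Calcium signals are known for their part in pollen germination and in the growth of the pollen tube, where a steep calcium gradient lies at the tip, and calcium also serves as a second messenger in leaf cells under drought, cold and attack by pathogens.

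All arrays had been scaled to the same target of 500, but 6 of them, those of MPGs and GPGs, differed from the other 18 in 2 respects. Their bacterial and phage hybridisation controls had geometric means of 8989 to 17347, against 1458 to 4228 on the other arrays, and their median signals were 147 to 198, against 51.3 to 105. The step from TCP to MPGs is therefore given below also with every array scaled to those controls, which moved the median log2 difference of all probe sets tested from 0.55 as deposited to −0.51. Summed marker signals were highest where the labels place them, and of single probe sets 6 of 8 for photosynthesis, 3 of 3 for root and 3 of 3 for late pollen were. The other 2 photosynthesis probe sets were dim, with highest means of 179 in MPGs (RBCS1) and 71.5 in GPGs (OsrbcS). The summed signal of 8 photosynthesis probe sets averaged 117448 in leaf and 584 to 1885 elsewhere, that of 3 root probe sets 20990 in root and 173 to 701 elsewhere, and that of 3 late pollen probe sets 428256 in MPGs, 12764 in UNMs and 122 to 335 in the sporophytic tissues. Log2 signals of replicate arrays correlated at 0.83 to 0.88 among GPGs, at 0.84 to 0.86 among MPGs and at 0.925 to 0.986 in the other tissues, and root array 3 correlated less with arrays 1 and 2 (0.94) than these did with each other (0.99).

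Among the calmodulins, whose proteins are identical or nearly so, CAM1-1 and CAM2 had higher signals in UNMs, BCP and TCP than in leaf, and CAM3 was low in late pollen. In MPGs and GPGs the order of CAM1-1 and CAM2 against leaf depended on the scaling of the arrays. CAM1-1 encodes the typical plant calmodulin. Its signal was 9947, 8452 and 9516 in UNMs, 20362, 18888 and 16794.5 in BCP, 36968, 40139 and 34627 in TCP, 29773, 29082.5 and 34911 in MPGs and 25922, 28066 and 29197 in GPGs. In the sporophytic tissues it was 6449, 6504.5 and 7608 in leaf, 9702, 9511 and 11347 in root and 10479, 11588 and 10587 in callus. As deposited all pollen arrays lay above all leaf arrays, but UNMs overlapped root. On the scale of the hybridisation controls the mean of CAM1-1 was 0.85 times that of leaf in MPGs and 0.632 times in GPGs, with 0 of these 6 arrays above the leaf arrays, against 4.56 and 4.05 times as deposited. The signal of CAM1-1 rose in BCP against UNMs with no overlap of arrays (log2 difference 1.00, SE 0.18, adjusted p = 0.00027). This increase sat on the limit of a 2-fold change, and it fell short of it, at 0.71, with arrays scaled to the hybridisation controls, with an offset of 200 in place of 50 (0.99), and when UNM array 2, BCP array 1 or BCP array 2 was left out (0.93 to 0.99). The step from BCP to TCP was of the same size and just under the limit (log2 difference 0.995, SE 0.18, adjusted p = 0.00017), again with no overlap. It passed the limit, at 1.01 to 1.06, without BCP array 1, BCP array 2 or TCP array 3. After TCP the means came to 31255 in MPGs and 27728 in GPGs, with overlapping arrays at each step and no call. On each other scaling CAM1-1 was called lower in MPGs than in TCP, by a log2 difference of −1.24 with the same median (adjusted p = 0.0012), −1.27 after quantile normalization (adjusted p = 0.00013) and −2.10 on the controls (adjusted p = 1.7e-06).

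CAM2 encodes a further calmodulin of almost the same sequence. It gave 7321, 7570.4 and 7795 in UNMs, 15468, 18139 and 15392 in BCP, 18363, 21512 and 21214 in TCP, 17275, 18414 and 19887 in MPGs and 23646, 23719.5 and 24586 in GPGs, beside 6300.1, 5822 and 6074 in leaf, 6049.6, 6485 and 6169 in root and 9770.4, 11328.5 and 9838 in callus. As deposited its highest mean was that of GPGs and its lowest were those of root and leaf, which overlapped. The highest mean lay in BCP with arrays set to the same median or the same quantiles and in TCP on the hybridisation controls, where the means of MPGs and GPGs were 0.576 and 0.62 times that of leaf and all 6 of their arrays lay below the leaf arrays. The test placed 1 change on it, an increase in BCP against UNMs (log2 difference 1.10, SE 0.17, adjusted p = 5.1e-05), with every BCP array above every UNM array. Scaled to the hybridisation controls the difference was 0.81, under the limit. From BCP to GPGs the means stayed between 16333 and 23984, and no later step passed the test as deposited. CAM2 was called lower in MPGs than in TCP with arrays set to the same median (−1.12, adjusted p = 0.0044) and on the controls (−1.98, adjusted p = 1.6e-06).

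CAM3 is the calmodulin gene that was low in late pollen. In BCP against UNMs it was higher, as CAM1-1 and CAM2 were, with no overlap but under the limit (log2 difference 0.59, SE 0.20, adjusted p = 0.048). Its signal was 8999, 9481 and 10266 in UNMs, 14595.5, 14552 and 14107 in BCP, 6741, 8311 and 7476 in TCP, 879, 607 and 965 in MPGs and 259, 213 and 215 in GPGs. Leaf arrays held 5358, 5616 and 6762, root arrays 17687, 17787 and 13047 and callus arrays 8580.5, 8962 and 8373. Pollen thus held the second-highest mean of the 8 tissues, that of BCP, and both of the lowest, and the MPG and GPG arrays lay below every array of every other tissue. CAM3 fell in MPGs against TCP by 3.14 on the log2 scale (SE 0.20, adjusted p = 2e-10), a difference in the lowest 1.11% of all probe sets tested, and it fell by 4.80 when arrays were scaled to the hybridisation controls. GPGs were lower again than MPGs (log2 difference −1.61, SE 0.20, adjusted p = 6.7e-05), with no overlap, although this call was lost when only the 6 arrays of MPGs and GPGs entered the fit (adjusted p = 0.32). The earlier decline, in TCP against BCP, stayed just under the limit of a 2-fold change (log2 difference −0.94, SE 0.20, adjusted p = 0.0011) and passed it with arrays set to the same median (−1.33), to the same quantiles (−1.35) or to the controls (−1.19), and without TCP array 2 (−1.02).

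**Figure D1:**
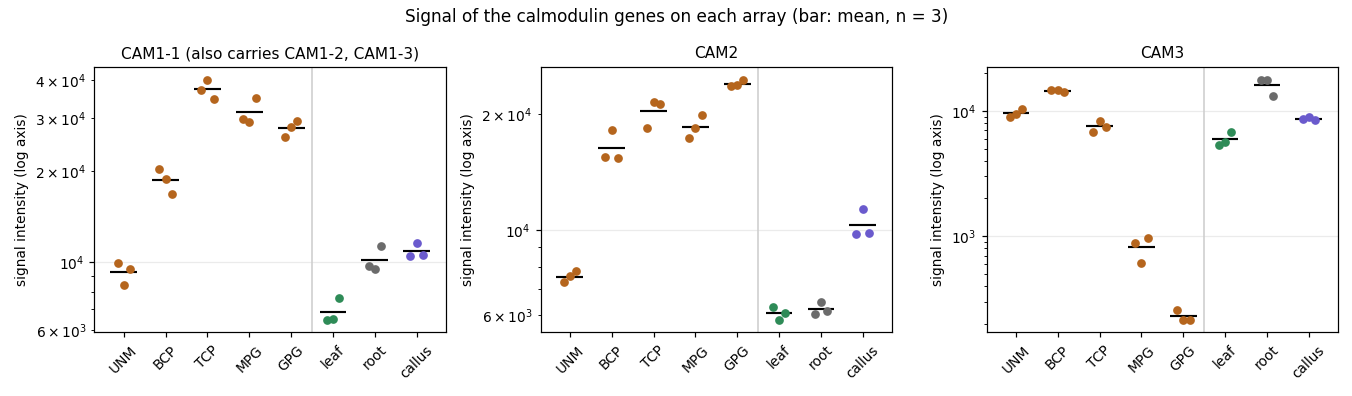
Signal intensity of the probe sets of CAM1-1, CAM2 and CAM3 on each of 24 arrays (points, log axis) with tissue means (bars, n = 3), pollen stages left of the vertical line and sporophytic tissues right of it. On this deposited scaling CAM1-1 and CAM2 sit above leaf in all 15 pollen arrays, which does not hold for MPGs and GPGs when arrays are scaled to the hybridisation controls (9 of 15 arrays above leaf for each gene), and CAM3 drops to means of 817 in MPGs and 229 in GPGs, against 7509 in TCP.

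Of the 2 CML genes whose products carry a calmodulin domain with a C-terminal extension and a prenylation motif in rice, CML1 was a leaf signal with an appearance in mature pollen, and CML3 was dim throughout. In pollen CML1 gave 60.1, 42.3 and 63.8 in UNMs, 23.0, 59.2 and 50 in BCP, 102, 90.0 and 10.8 in TCP, 681.5, 238 and 1087 in MPGs and 81.4, 92.8 and 55.8 in GPGs. Leaf gave 2705, 3928 and 3424, root 1457, 1321.5 and 282 and callus 614, 746 and 603. All 15 pollen arrays lay below the 3 leaf arrays, and root array 3 stood apart from the other 2. Signal of CML1 rose in MPGs against TCP (log2 difference 2.51, SE 0.49, adjusted p = 0.00031) and was lower in GPGs than in MPGs (log2 difference −2.31, SE 0.49, adjusted p = 0.0049). Neither step had overlapping arrays, but the MPG arrays spanned a wide range and the first change was 0.90, not past the test, with arrays scaled to the hybridisation controls (adjusted p = 0.16). The second was −1.68 on that scaling (adjusted p = 0.11) and kept −2.31 but not the call with the 6 arrays of the 2 stages alone (adjusted p = 0.34). As deposited the mean of CML1 in MPGs was 19.95% of its leaf mean, while the summed photosynthesis markers there stood at 1.29% of theirs. On other scalings the mean of CML1 in MPGs was 0.0767 (same median), 0.257 (quantile normalization) and 0.0334 (hybridisation controls) times that of leaf. The part of leaf material in this signal was not tested.

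CML3 never averaged more than 205 ± 91.0 (SD, n = 3), in GPGs, and its arrays ranged from 9.7 to 412 in pollen and from 27.5 to 213 in the sporophytic tissues. No neighbours in its order of tissues were separated by their arrays, and none of the 5 comparisons passed the test.

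CML15 and CML32 were both bright in late pollen, and their signals rose at different steps. The highest mean was in MPGs for both as deposited, and it stayed in MPGs or GPGs on other scalings for CML15 but lay in TCP for CML32 after quantile normalization and on the hybridisation controls. Both encode CML proteins. CML15 was present at all stages, with 1509, 1892 and 1713.5 in UNMs and 1724, 1922 and 1778 in BCP, before it climbed to 18792, 21212.5 and 18424 in TCP, 116246, 121452 and 124692 in MPGs and 121951, 121312 and 109727 in GPGs. Among the sporophytic tissues only leaf was high, at 15329, 13888 and 13931, with 747, 839.7 and 456 in root and 333, 416 and 317 in callus. The leaf mean was 21.1 times that of root and 40.4 times that of callus, and as deposited it lay between the means of BCP and TCP with no overlap on either side, while TCP came to 0.623 times leaf after quantile normalization and 0.927 times on the controls. MPGs held 8.4 times the leaf mean as deposited and 1.6 times on the controls. Late pollen markers were near their floor in the same leaf arrays, where the summed signal of EXPB9, EXPB10 and ADF9 was 20.4 to 191. The part of pollen material in the leaf signal was not tested. CML15 did not pass the test in BCP against UNMs, whose arrays overlapped, and rose in TCP against BCP (log2 difference 3.39, SE 0.21, adjusted p = 3.2e-11) and again in MPGs against TCP (log2 difference 2.63, SE 0.21, adjusted p = 2.5e-09), with all arrays of the later stage above all of the earlier. The increase at the second of these steps was 1.65 with arrays set to the same median, 1.49 after quantile normalization and 0.78, no longer a call, on the scale of the hybridisation controls (adjusted p = 0.058). From MPGs to GPGs the means differed little, with 117664 in GPGs and 120796 in MPGs, and the arrays overlapped.

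CML32 was bright on the pollen arrays and dim on all others. Its signal was 1041, 969.6 and 1136 in UNMs, 10841.5, 13293 and 11371 in BCP, 27895, 31743 and 31476 in TCP, 62214, 66486 and 77735 in MPGs and 59660.4, 60449.5 and 68196 in GPGs. Leaf had 48.4, 43.4 and 59.3, root 34.4, 28.7 and 33.4 and callus 3.8, 21.8 and 23.6, all under the signal of 100 asked of a probe set in the filter on dim signals. It was the 1 probe set of the 12 for which all 15 pollen arrays lay above all 9 sporophytic arrays, a pattern held by 3.37% of all probe sets tested, and this held for CML32 on each other scaling too. Where CML15 waited until TCP, CML32 rose already in BCP against UNMs (log2 difference 3.43, SE 0.19, adjusted p = 1.9e-11), the 99.4th percentile of all differences at that step. It rose further in TCP against BCP (log2 difference 1.36, SE 0.19, adjusted p = 7.2e-06), a call that was lost, at 0.97, with arrays set to the same median. The last increase, in MPGs against TCP (log2 difference 1.17, SE 0.19, adjusted p = 3.5e-05), depended on the scaling of the late arrays. It was 0.19 with the same median, −0.015 after quantile normalization and −0.67 on the scale of the hybridisation controls, so that no direction can be given for CML32 at this step. MPGs and GPGs overlapped.

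CML14 was low in early pollen and brighter in mature pollen, leaf, root and callus. In pollen it gave 115, 149 and 192 in UNMs, 166, 68.2 and 180.5 in BCP, 21.9, 78.2 and 36.1 in TCP, 1877, 2315 and 3027 in MPGs and 1025.5, 620.4 and 1059 in GPGs. Leaf gave 2007, 2106 and 2748, root 1485, 1623 and 915 and callus 1165, 798 and 1049. The mean of MPGs was 1.05 times that of leaf, with overlapping arrays, and 1.45 times after quantile normalization, but leaf held 2.46 times the mean of MPGs with arrays set to the same median and 5.26 times on the hybridisation controls. No order of leaf and MPGs can therefore be given. CML14 rose in MPGs against TCP (log2 difference 4.70, SE 0.31, adjusted p = 2.8e-10), which was 53.0-fold between the means and larger than 99.9% of the differences of all probe sets, and which kept 2.98 when scaled to the hybridisation controls. The fold rests on a dim signal, as all 3 TCP arrays lay under the signal of 100 asked in the filter. CML14 was lower in GPGs than in MPGs (log2 difference −1.38, SE 0.31, adjusted p = 0.008), with the 3 GPG arrays below the 3 MPG arrays, although the call was lost with arrays set to the same median (adjusted p = 0.10) or to the controls (adjusted p = 0.071), and with the 6 arrays of these stages alone (adjusted p = 0.38). TCP held its lowest mean, but TCP and BCP overlapped and the difference stayed short of the limit (log2 difference −0.96, SE 0.31, adjusted p = 0.024). It passed the limit on each other scaling of the arrays (−1.21 to −1.28), with an offset of 16 (−1.34), and without BCP array 2 or TCP array 2 (−1.27 and −1.20).

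**Figure D2:**
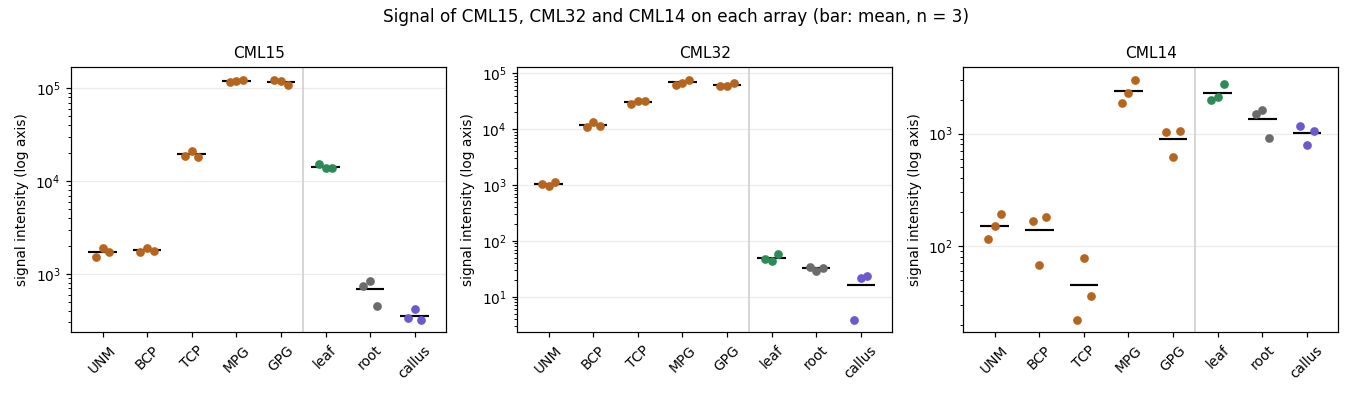
Signal intensity of the probe sets of CML15, CML32 and CML14 on each of 24 arrays (points, log axis) with tissue means (bars, n = 3), pollen stages left of the vertical line and sporophytic tissues right of it. CML15 rises in TCP and MPGs and has a leaf mean of 14383, CML32 rises in BCP and TCP and stays at or below 59.3 in leaf, root and callus, and CML14 jumps to 2406 in MPGs, against 45.4 in TCP.

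CML16 and the S1_at and S1_s_at probe sets of CML4 were brighter in the sporophytic tissues than in pollen. CML16, whose product is known in rice from responses to drought and abscisic acid, had 294, 467 and 330.2 in UNMs, 111, 10.7 and 47.7 in BCP, 98.2, 60.3 and 69.6 in TCP, 183, 71.0 and 531 in MPGs and 201.5, 389.5 and 40.1 in GPGs. Its sporophytic signals were 18737, 20224 and 15701 in leaf, 1161, 1058 and 1499.5 in root and 2227, 1918 and 2047 in callus. Every pollen array lay below every sporophytic array, and the leaf mean was 8.83 times that of callus, the next tissue. CML16 was lower in BCP than in UNMs (log2 difference −2.05, SE 0.49, adjusted p = 0.0044), and the arrays did not overlap. The summed signal of 8 anther wall markers was 8113 to 9067 in BCP and 23470 to 25948 in UNMs. Of these 8 markers 3 fell at this step and 5 were not called. Their part in the difference of CML16 was not tested. The later pollen stages overlapped one another, and no other step passed the test.

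CML4, linked in rice to drought tolerance, was read by 3 probe sets. The probe set S1_s_at ranged from 5.2 to 543 over the pollen arrays and gave 7482, 7085 and 7114 in leaf, 4129.6, 3970.1 and 5356 in root and 1048, 1365 and 1271 in callus. The probe set S1_at ranged from 48.8 to 601 over the pollen arrays and gave 3814, 2817.5 and 3489 in leaf, 3916, 3884.5 and 3792 in root and 1708, 1025 and 1087 in callus. On both, every pollen array lay below every sporophytic array. The probe sets differed in their highest tissue, which was leaf for the first and root, overlapping leaf, for the second. Both were higher in root than in callus with no overlap (log2 difference 1.82, SE 0.41, adjusted p = 0.0017 and log2 difference 1.60, SE 0.38, adjusted p = 0.0028). Within pollen each passed the test once as deposited, at different steps. The probe set S1_at was higher in TCP, at 294, 264 and 222, than in BCP, at 144, 81.0 and 61.5 (log2 difference 1.12, SE 0.38, adjusted p = 0.032), and this call was lost on each other scaling, with an offset of 200 and in 4 of the 6 fits that left out 1 of these arrays. On the hybridisation controls S1_at was called lower in MPGs than in TCP (−1.32, adjusted p = 0.0099). The probe set S1_s_at was higher in MPGs, at 386, 112 and 56.2, than in TCP, at 53.4, 5.2 and 77.9 (log2 difference 1.12, SE 0.41, adjusted p = 0.031), with overlapping arrays, and this call too was lost on each other scaling, with an offset of 200, with the 6 arrays of these stages alone (adjusted p = 0.19), and without MPG array 1 (0.54) or TCP array 2 (0.77). The third probe set, A1_at, was dim, with a highest mean of 169 ± 33.2 (SD, n = 3) in leaf and 1 GPG array at 472 beside 2 at 14.3 and 14.5, and it passed no test.

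**Figure D3:**
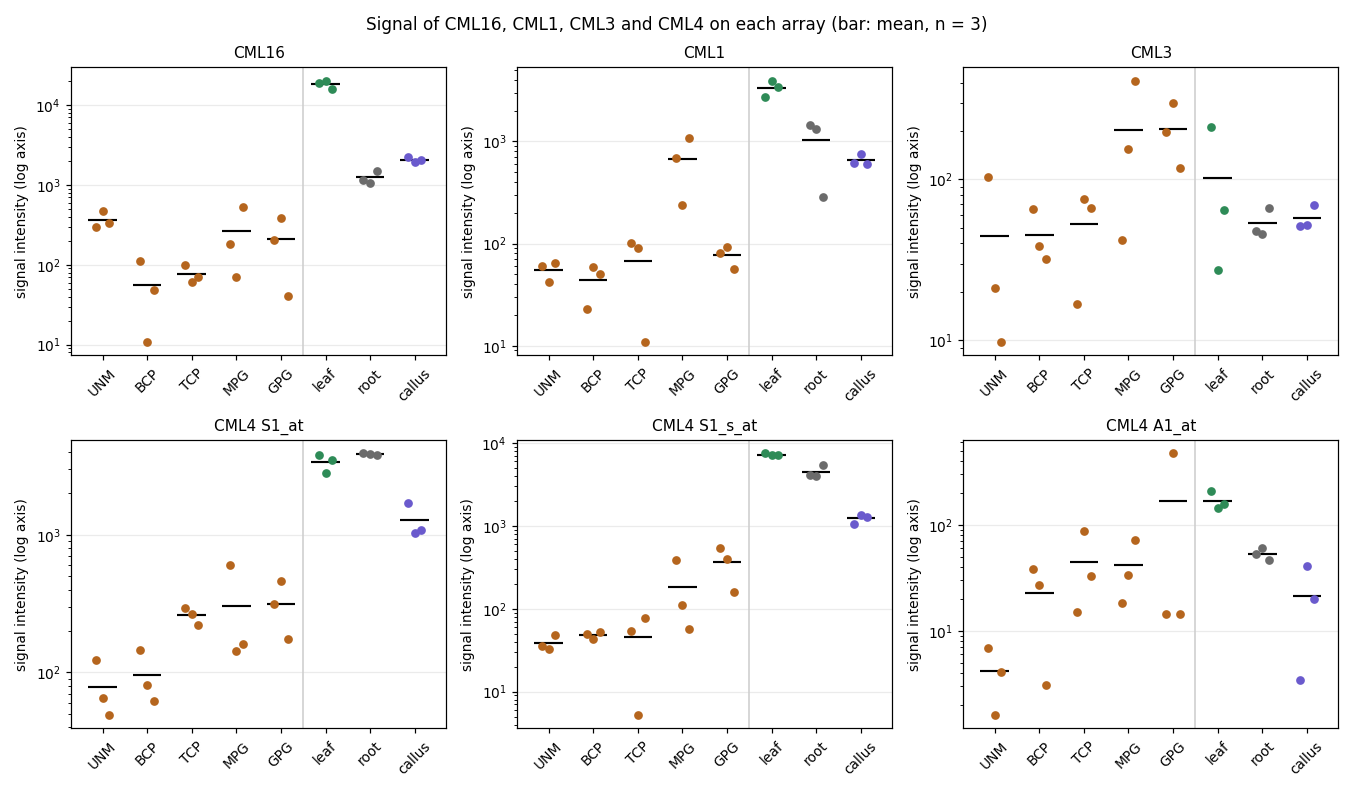
Signal intensity of the probe sets of CML16, CML1, CML3 and CML4 on each of 24 arrays (points, log axis) with tissue means (bars, n = 3), pollen stages left of the vertical line and sporophytic tissues right of it. CML16 and 2 of the 3 CML4 probe sets lie lower in all 15 pollen arrays than in all 9 sporophytic arrays, CML1 lies lower in all pollen arrays than in leaf, and the panels of CML3 and of the A1_at probe set of CML4 show dim, scattered signals.

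Counted over the 12 probe sets, which had all reached a signal of 100 in at least 3 arrays, the changes were spread over the steps. In BCP against UNMs 3 rose (CML32, CAM1-1 and CAM2) and 1 fell (CML16), where 6.11% of the 47589 probe sets tested rose and 8.19% fell. In TCP against BCP 3 rose (CML15, CML32 and S1_at of CML4) and 0 fell, where 10.2% rose and 12.9% fell, and at an unadjusted p under 0.05 with no limit on size 2 were lower. In MPGs against TCP 5 rose (CML14, CML15, CML1, CML32 and S1_s_at of CML4) and 1 fell (CAM3), where 27.0% rose and 11.9% fell. On the scale of the hybridisation controls this step had 1 increase, that of CML14, and 4 decreases (CAM1-1, CAM2, CAM3 and S1_at of CML4), where 597 of the 47589 rose and 14282 fell. In GPGs against MPGs 0 rose and 3 fell (CML14, CML1 and CAM3), where 3.0% rose and 4.67% fell, and 2 were higher at an unadjusted p under 0.05. The median log2 difference of the 12 was 0.17, 0.33, 1.04 and −0.08 along the 4 steps, beside −0.01, 0.14, 0.55 and −0.04 over all probe sets tested. As the pollen signals bore on the choice of the genes, these counts are a description. In root against callus 2 rose, both of CML4, and 0 fell, where 10.9% rose and 10.5% fell, and 1 was lower at an unadjusted p under 0.05. Without root array 3 the number that rose was 4 in place of 2.

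**Figure D4:**
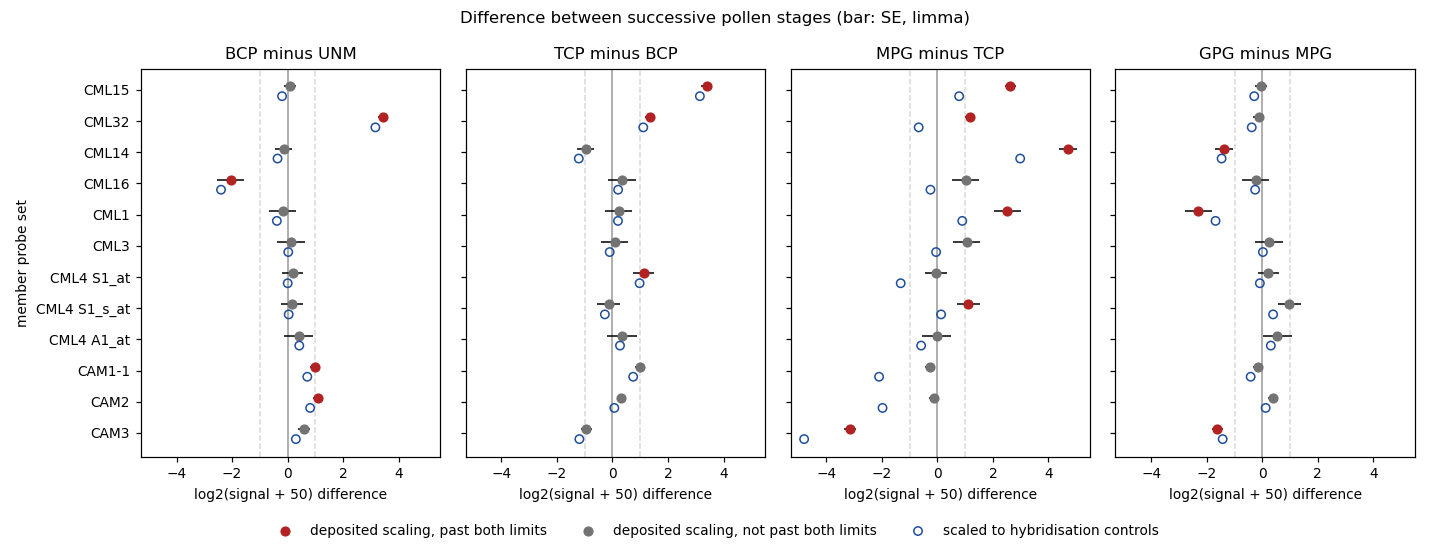
Difference in log2(signal + 50) of the 12 probe sets between successive pollen stages (filled points, bars ± SE from limma; red, adjusted p under 0.05 and a difference of at least 1 in size) and the same difference with arrays scaled to the hybridisation controls (open points). The open points lie to the left of the filled ones in MPGs minus TCP, where CML14 stays at 2.98 and CML32 moves to −0.67.

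Set against the sporophytic tissues, the 12 probe sets divided into several patterns, described here as deposited and without a test. All 15 pollen arrays lay above all 3 leaf arrays for CML32, CAM1-1 and CAM2 (8.33% of all probe sets tested did so), and below them for CML1, CML16 and 2 probe sets of CML4 (13.7%). The last 3 of these also lay below root and callus (4.3%). The highest mean was in a pollen stage for 6 of the 12, where 69.0% of all probe sets had it there, and in leaf for 4, where 11.9% did. These 4 were CML1, CML16 and the S1_s_at and A1_at probe sets of CML4, and A1_at was dim, at 169 in leaf and 167 in GPGs. Both shares were taken only as deposited, where the arrays of MPGs and GPGs had the higher median signals. CML14 and CML15 lay neither above nor below leaf in all pollen arrays, as both were low in early pollen, higher in mature pollen and well above the lowest tissue in leaf. Their profiles over the 8 tissue means of log2(signal + 50) correlated at only 0.20, while CML32 correlated at 0.91 with both CAM1-1 and CAM2, which correlated at 0.94 with each other. CAM3 ran against CML15 (−0.85). These coefficients describe 8 points that share arrays and scaling and carry no p.

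The named genes whose profiles were most like those of the CML and CAM genes, by Pearson r over the 8 tissue means, differed from gene to gene. CML32 was closest to ADF-1 and ADF-9 (0.99 each), 2 actin-depolymerising factors with MPG means of 139729 and 125482 and lowest means of 50.2 and 19.5, and to IMCE (0.99). CML15 was closest to CDKF-3 (0.98), CCS1 (0.97) and panC (0.97). CML14 was closest to EXLA4 (0.93), CDPK5 (0.92), a calcium-dependent protein kinase, and CPD2 (0.91). Of these EXLA4 was dim, with a highest mean of 174, in leaf, and a lowest of 37.8. CAM1-1 was closest to EXP26, CKI and GH3.11 (0.97 each), CAM2 to RF2a, GNA1 and LFL1 (0.96 each), and CAM3 to SPP30-like, cope1 and TBP2 (0.99 each). Among the leaf genes CML1 was closest to LAC24, a laccase, SMAX1L and Hox22, and CML16 to BGLU22, LTD and CIPK2, a kinase of the CBL calcium sensors, with r of 0.97 to 0.99 in all of these. The S1_s_at probe set of CML4 was closest to the potassium transporter HAK16 (0.99), and the S1_at probe set, highest in root, to OsMAS and HAK16 (0.98 each).

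The wider CML family, 16 further genes with 19 probe sets, was spread over pollen and leaf. Of these 19 probe sets 10 had their highest mean in a pollen stage, where 69.0% of all probe sets tested had it there, and 8 in leaf, where 11.9% did. Some of the 10 were dim or scattered. CML27 was highest in leaf on 1 probe set (mean 10846) and in GPGs on the other (166, arrays 4.4 to 306). CML5 was highest in leaf on 1 probe set (1019) and in GPGs on the other (866, arrays 122.5, 195 and 2281). The dimmer probe set of CML10 was highest in MPGs, at 142 (arrays 7.9 to 307). Along the pollen series 4 rose and 2 fell in BCP against UNMs, 3 rose and 2 fell in TCP against BCP, 2 rose and 4 fell in MPGs against TCP, and 1 rose and 2 fell in GPGs against MPGs. On the hybridisation controls 1 rose and 6 fell in MPGs against TCP. In root against callus 7 rose and 0 fell. The shares of all probe sets that rose or fell at these steps are those given for the 12 above. Like CML32, CML28 rose at both early steps. It had 1449, 1439 and 1511.5 in BCP, against 82.5, 26.4 and 95.4 in UNMs, with no overlap (log2 difference 3.74, SE 0.35, adjusted p = 6.7e-08), and it was higher again in TCP than in BCP (log2 difference 1.61, SE 0.35, adjusted p = 0.0012). Unlike CML15, CML28 and CML11 were lower in MPGs than in TCP (log2 difference −1.22, SE 0.35, adjusted p = 0.0076 and log2 difference −1.15, SE 0.32, adjusted p = 0.0061), as were CML7 (log2 difference −1.91, SE 0.18, adjusted p = 3.4e-08) and the brighter probe set of CML10 (log2 difference −1.45, SE 0.21, adjusted p = 1.1e-05). The dimmer probe set of CML10 went the other way without a call, from 24.2 in TCP to 142 in MPGs (log2 difference 1.10, SE 0.50, adjusted p = 0.078). The calls of CML28 and CML11 at this step were lost after quantile normalization. CML31, a leaf gene with 14858, 13012 and 14466 in leaf, passed the test at the same 2 pollen steps as CML14, with an increase in MPGs against TCP (log2 difference 3.06, SE 0.41, adjusted p = 4.7e-06) and a decrease in GPGs against MPGs (log2 difference −1.40, SE 0.41, adjusted p = 0.036) that was lost with arrays set to the same median or to the controls, with an offset of 16 or 200, with the 6 arrays of these stages alone, and without MPG array 1 or 3 or GPG array 1 or 2.

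**Figure D5:**
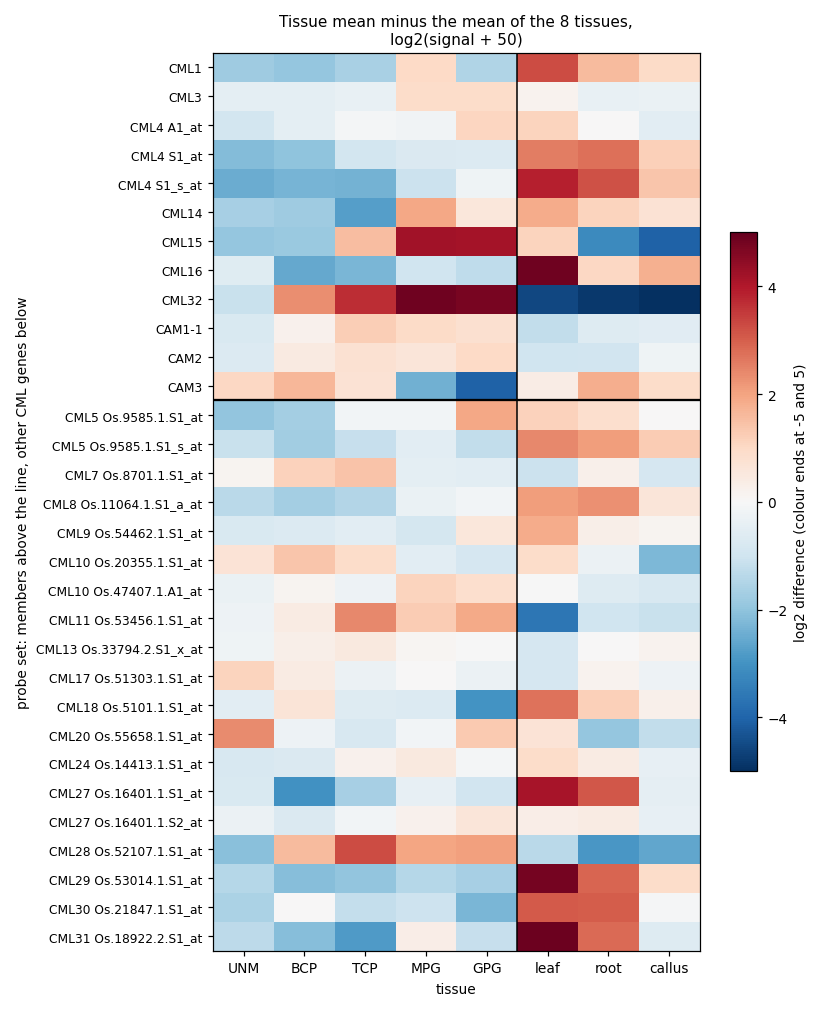
Mean log2(signal + 50) of each tissue minus the mean of the 8 tissues, for the 12 probe sets described above (over the horizontal line) and for 19 probe sets of 16 other CML genes (under it), pollen stages left of the vertical line. CML15 and CML32 are darkest red in MPGs and GPGs, CML28 and CML11 are reddest in TCP, and CML16, CML29 and CML31 are reddest in leaf.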

How the data were processed

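Per probe set, the authors deposited linear signal intensities, computed by MAS5 in GCOS from each array's scan and brought to a common target of 500. The versions used are not given in the sources used here. Of 57381 probe sets 123 controls were left out, and 57258 were analysed. All 24 columns were mapped to samples by their labels. The study describes 3 independent biological replicates per tissue, and the number of arrays limits the precision.

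Signals were tested as log2(signal + 50) with limma 3.58.1 in R 4.3.3, with 1 mean per tissue, the spread pooled over 8 tissues and Benjamini-Hochberg adjustment over the 47589 probe sets with a signal of at least 100 in 3 arrays. All 12 probe sets of the 10 genes were named, each on its own, and none was averaged with another. The limits were an adjusted p under 0.05 and a log2 difference of at least 1 in size. The 5 comparisons were BCP against UNMs, TCP against BCP, MPGs against TCP, GPGs against MPGs, and root against callus. The procedure was tested on simulated data.

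Gene names came from RefSeq through the probe annotation, which gave 1 gene for 22436 probe sets, several for 95 and none for 34727. For 3195 the name was informative. Profile neighbours are the 3 genes among these with the highest Pearson r, for genes whose mean reaches 1000 in a tissue. Only probe sets with 1 gene were used for names. Of 29 CaM and CML genes in RefSeq 3 have no such probe set and were not analysed here. Coordinates and sequences were not used. The genes, gene lists and markers were chosen with earlier results of these data known. Other genes were named, up to 3 per list and direction, by the size of their change, and CML11, CML31 and the genes in the closing section were chosen after their values were seen. Alternatives were offsets of 16 and 200, no filter and a floor of 200, arrays set to the same median, to the same quantiles or to the 9 hybridisation controls, a fit of the 2 tissues alone, a replicate block, a trended and robust prior, medians in place of means for the order of tissues, and each replicate left out. Pollen and leaf signals were set side by side on the other scalings after the data had been seen. Python 3.11.15 with numpy 2.4.6, pandas 2.3.3 and matplotlib 3.10.9 did the rest.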

Additional observations from a re-analysis of the deposited data

How the results depend on the processing

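The scaling of the arrays mattered most. On the scale of the hybridisation controls 1 member probe set rose in BCP against UNMs (3 as deposited), where 2337 of 47589 tested rose. On that scale 2 fell in TCP against BCP (0 as deposited), where 8022 of all probe sets fell. In MPGs against TCP 1 rose and 4 fell (5 and 1 as deposited), where 597 of all rose and 14282 fell. In GPGs against MPGs 1 fell (3 as deposited), where 231 of all fell. With arrays set to the same median 1 rose and 2 fell in TCP against BCP, where 3699 of the 47589 rose and 8905 fell. With the same setting 3 rose and 3 fell in MPGs against TCP, where 3096 of all rose and 9833 fell. After quantile normalization 2 fell in TCP against BCP, where 6001 of the 47589 fell, and 1 fell in root against callus (0 as deposited), where 4541 fell. It gave 3 that rose and 2 that fell in MPGs against TCP, where 6255 of all rose and 7509 fell. With an offset of 16, 1 fell in TCP against BCP, where 6108 of the 47589 fell. With the 2 tissues alone 0 fell in GPGs against MPGs, where limma called 0 of all 47589 probe sets in either direction. Of 210 values of 21 log2 differences under 10 settings 2 changed sign, 1 after quantile normalization (−0.015) and 1 on the scale of the hybridisation controls (−0.67), both of CML32 in MPGs against TCP. The causes were not tested. A floor of 200 left out the A1_at probe set of CML4.

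Leaving out 1 replicate gave 2 to 3 that rose and 1 that fell in BCP against UNMs, 2 to 4 and 0 to 2 in TCP against BCP, 4 to 6 and 1 in MPGs against TCP, 0 to 1 and 3 in GPGs against MPGs, and 2 to 4 and 0 in root against callus. The decreases in TCP against BCP appeared without BCP array 2 or TCP array 2, and the increase in GPGs against MPGs without MPG array 1 or GPG array 3. The number of probe sets with their highest mean in a pollen stage was 6 as deposited, 4 to 6 on other scalings and 5 to 7 with 1 replicate left out.

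The tissues share replicate numbers, but the labels do not say whether these pair the samples, and the main fit did not pair them. Same-numbered arrays deviated from their tissue means with correlations of −0.05 to 0.15, over 0.1 in 4 of 15 pairs of same-numbered arrays over the 5 comparisons, and in 10 of these 15 an array matched best the array of its own number. With the replicate block the counts of member probe sets stayed at 3 and 1, 3 and 0, 5 and 1, 0 and 3, and 2 and 0 along the 5 comparisons, and no member's call changed.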

Other observations

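Genes that move calcium or act on calmodulin were counted as lists beside the sensors, with no set test. Of the calcium transport genes, 11 genes with 15 probe sets tested, 2 probe sets rose and 3 fell in BCP against UNMs, 1 rose and 6 fell in TCP against BCP, 5 rose and 3 fell in MPGs against TCP, 1 rose and 2 fell in GPGs against MPGs, and 3 rose and 1 fell in root against callus. Of all probe sets tested 6.11% rose and 8.19% fell in BCP against UNMs, and 10.2% rose and 12.9% fell in TCP against BCP. In MPGs against TCP 27.0% rose and 11.9% fell, in GPGs against MPGs 3.0% and 4.67%, and in root against callus 10.9% and 10.5%. On the scale of the hybridisation controls 1 of the 15 rose and 3 fell in MPGs against TCP. Of the 47589 probe sets tested 597 rose and 14282 fell there. ACA1, ACA5 and ACA7 are calcium-pumping ATPases of a type that calmodulin activates. ACA1 gave 9538, 9402 and 9449.5 in BCP, against 2385, 2530.4 and 2580.4 in UNMs, and rose at that step (log2 difference 1.90, SE 0.20, adjusted p = 3.5e-07). In MPGs it gave 8562, 6383 and 9456, below its 16663, 18441 and 17661 in TCP (log2 difference −1.13, SE 0.20, adjusted p = 0.00012), and without MPG array 2 the difference was −0.96, under the limit. ACA5 took the opposite course at that step, with 2396, 1988 and 1755 in MPGs, against 108, 297 and 136 in TCP (log2 difference 3.26, SE 0.32, adjusted p = 5e-08), and was still higher, by 1.53, with arrays scaled to the hybridisation controls. ACA7 rose in BCP against UNMs (log2 difference 1.61, SE 0.24, adjusted p = 3e-05), fell in TCP against BCP (log2 difference −1.23, SE 0.24, adjusted p = 0.00037) and rose in MPGs against TCP (log2 difference 2.34, SE 0.24, adjusted p = 8.8e-08). The fall of ACA7 was no longer a call after quantile normalization or with an offset of 200, and its last increase no longer one on the scale of the hybridisation controls.

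CCAMK, a calcium- and calmodulin-dependent kinase known from root symbiosis, was read by 2 probe sets that differed. One had its highest signals in UNMs, at 4687, 4949 and 4761, with 2224.5, 2141 and 2083 in BCP and 737, 564 and 457 in TCP, and it fell in BCP against UNMs (log2 difference −1.14, SE 0.22, adjusted p = 0.00067) and in TCP against BCP (log2 difference −1.81, SE 0.22, adjusted p = 1.6e-06). The other had its highest mean in root. The summed signal of 8 anther wall markers was 23470 to 25948 in UNMs, 8113 to 9067 in BCP and 1071 to 1722 in TCP. Of these 8 markers 3 fell in BCP against UNMs and 4 in TCP against BCP, and the rest were not called. The highest mean lay in UNMs for 5 of them, in MPGs for 1 and in GPGs for 2. Their part in the signal of the first CCAMK probe set was not tested. The list of calmodulin-binding transcription factors and IQD or CBP60 proteins matched no named gene on the array.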
